A study of Homo sapiens with 15 samples.

Results

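KCNMA1 and TNNC1 are described here together with 8 other genes that move, store, sense or respond to calcium ions in the cell: KCNN4, ITPR1, ITPR2, ITPR3, ORAI1, STIM1, ATP2B4 and ATP2C2. They are the rows of the deposited expression table that carry these symbols. All 10 were found, of 33158 genes in the table. RNA was sequenced from 3 established triple negative breast cancer cell lines in 15 libraries, in 5 groups of 3. SUM149PT and HCC1937 were each sorted into a CD44+CD24-/low fraction, which the study treats as cancer stem cells (CSCs), and the remaining cells (non-CSCs). SUM159PT was not sorted, and the study treats the whole line as CSCs. The sort of SUM149PT and HCC1937 asks which transcripts mark the stem-like fraction, and SUM159PT adds a line in which such cells are the bulk.

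A rise of calcium in the cytosol is a brief signal, made by release from the endoplasmic reticulum (ER) through inositol trisphosphate receptors and by entry across the plasma membrane, and ended by pumps. When the ER store runs low, STIM1 senses the loss and opens the ORAI1 channel. In breast cells calcium also loads the secretory pathway, and calcium-activated potassium channels turn the signal into a change of membrane voltage that affects proliferation and migration.

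The table gives FPKM, fragments per kilobase of transcript corrected for library size, so levels can be compared between genes per unit of length. It gives no read counts, so the depth behind each value is not known. The FPKM values of a library summed to between 291276 and 366532 over all genes in the 12 sorted libraries. In the SUM159PT libraries the sums were 634746 to 652082, so comparisons with that line depend on the scaling. The lowest Pearson correlation of log2 values between libraries of a group, taken across genes, was 0.987. Log2 fold changes were fitted on FPKM + 0.1, which makes the change of a gene near 0.1 FPKM smaller than the ratio of its means. The limit for a call was a limma adjusted p of 0.05, with Benjamini-Hochberg adjustment over all genes tested. Nothing in the labels says that the 3 libraries of a group came from separate cultures, so these p-values measure the spread between these samples. An exact two-sided permutation test of 3 libraries against 3 cannot give a p below 0.10. In bulk RNA, fewer cells that express a gene and less RNA in each cell cannot be told apart.

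The labels were checked against the markers of the sort. CD24 was at 7.97, 7.64 and 7.61 FPKM in the SUM149PT CSC libraries and at 147, 137 and 134 FPKM in the non-CSC libraries. In HCC1937 it was at 23.6, 22.5 and 23.9 FPKM in CSCs and at 167, 141 and 142 FPKM in non-CSCs. CD24 was lower in the CSC libraries of both lines with no overlap, as the sort defines them. CD44 averaged 84.4 FPKM in CSCs and 64.5 FPKM in non-CSCs of SUM149PT, and 106 and 97.8 FPKM in those of HCC1937, where the fractions overlapped and no difference was called (0.12, adjusted p 0.314). SUM159PT held CD24 at a mean of 0.729 FPKM and CD44 at 28.8 FPKM, the lowest group mean of both markers. EPCAM, an epithelial adhesion gene, averaged 2.49 FPKM in CSCs and 55.4 FPKM in non-CSCs of SUM149PT, against 17.7 and 83.6 FPKM in HCC1937. Of the genes for the receptors absent from triple negative tumours, PGR was at a mean of 0 FPKM in 4 groups and at 0.00101 FPKM in SUM149PT CSCs. ESR1 had group means of 0.00687 to 1.66 FPKM, while ERBB2 had group means of 3.55 to 19.1 FPKM.

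In SUM149PT, 9 of the 10 genes were called between CSCs and non-CSCs, in a comparison in which 74.8% of the 16037 genes tested were called. Of the 9, 4 were higher in CSCs (KCNMA1, ITPR1, ORAI1 and ATP2B4) and 5 were lower (KCNN4, ITPR2, ITPR3, STIM1 and ATP2C2). Over all genes tested, 33.3% were called higher and 41.5% lower. The median log2 fold change was -0.74 over the 10 genes and -0.11 over all genes. In HCC1937, 6 of the 10 were called, 3 higher and 3 lower, against 25.6% of the 15582 genes tested, with 10.3% higher and 15.3% lower. There the median log2 fold change was -0.08 over the 10 genes and -0.03 over all genes. KCNMA1, ITPR1 and ATP2B4 were called higher in CSCs of both lines, and ITPR3 and ATP2C2 were called lower in both. These 5 of 10 genes stand beside 2315 of the 14423 genes tested in both lines (16.1%) whose calls matched in direction. The study picked KCNMA1 and TNNC1 from these same libraries, and all 10 genes were chosen with earlier results known. The contrast is therefore not a test. The HCC1937 calls of ITPR3 and ATP2B4 were both lost without any 1 of the CSC libraries of that line. They were also lost under each of the 3 scalings, which leaves 3 of 10. The 16.1% of all genes is as deposited with all libraries, and no share is given for these other settings. None of the 10 genes was called in opposite directions, against 842 of the 14423 genes tested in both lines.

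**Figure D1:**
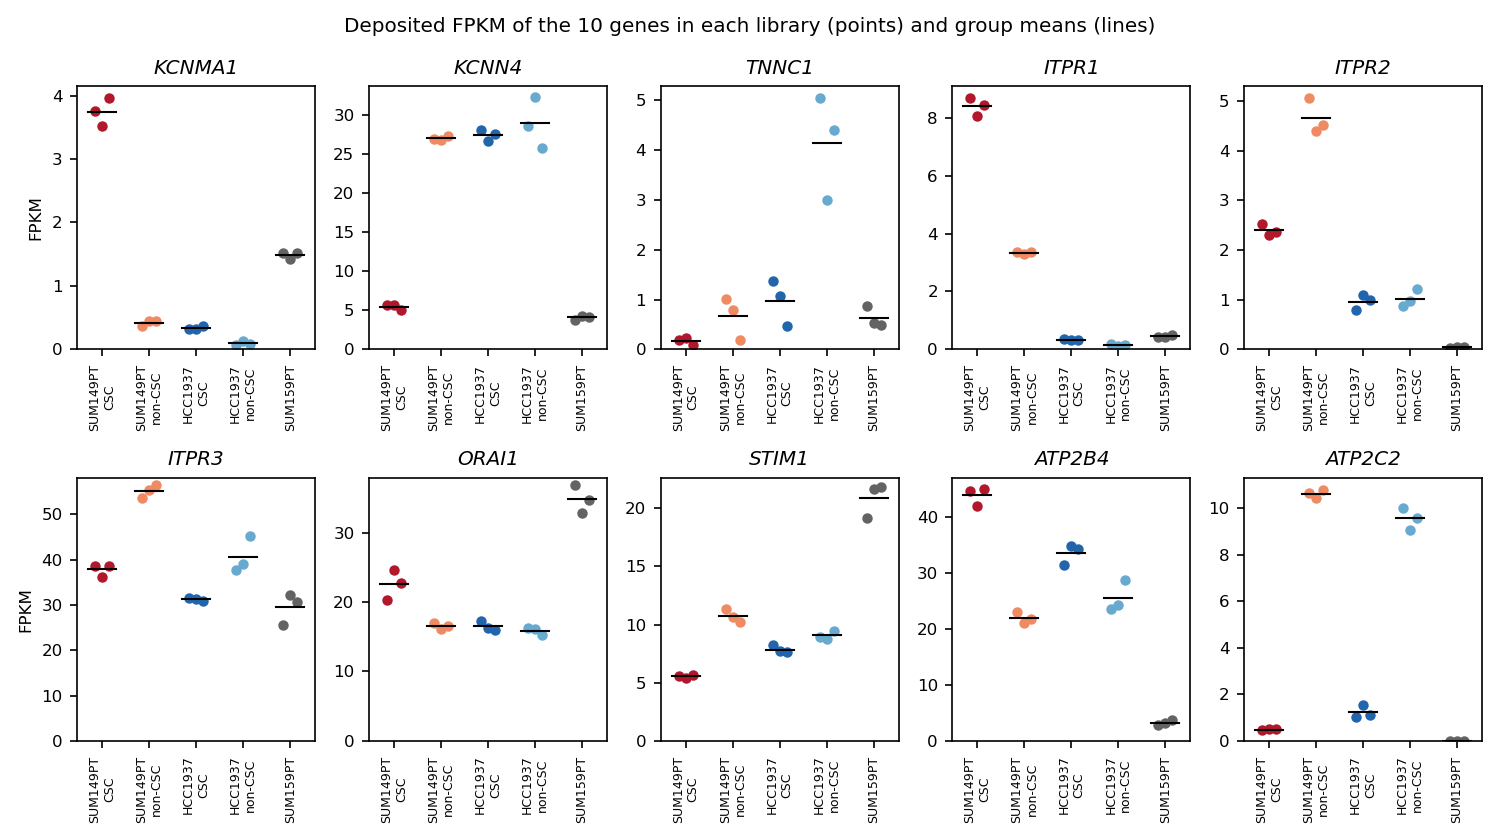
Deposited FPKM of the 10 genes (vertical axis) in each of the 15 libraries, with points for libraries and lines for group means. KCNMA1 runs from a mean of 3.74 FPKM in SUM149PT CSCs to 0.0927 FPKM in HCC1937 non-CSCs, and ATP2C2 is near 10 FPKM in both non-CSC groups only.

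The share of calls that were higher in CSCs depended on the scaling of the libraries. It was 44.6% in SUM149PT as deposited and 55% after quantile normalization, which put the median log2 fold change of all genes at 0.10. In HCC1937 it was 40.3% as deposited, 52.9% after quantile normalization and 54.3% after rescaling to TPM. The TPM rescaling put the median there at 0.09. In SUM149PT none of the 10 genes changed direction under upper quartile, quantile or TPM scaling. In HCC1937, KCNN4 and ITPR2 did, and neither was called there.

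**Figure D2:**
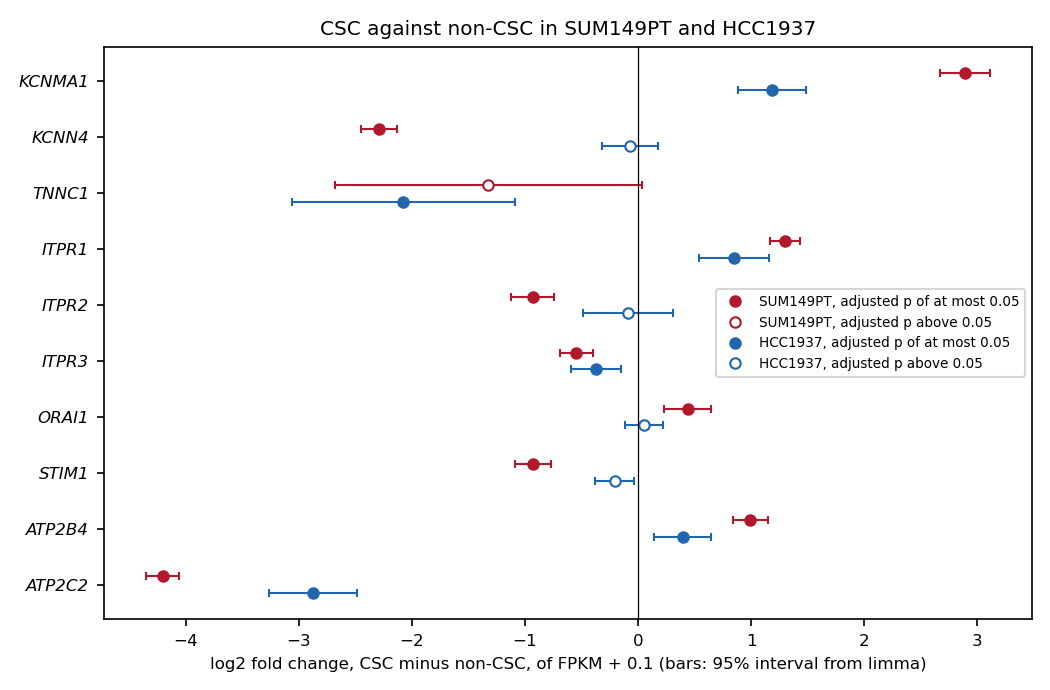
Log2 fold change of FPKM + 0.1, CSC minus non-CSC (horizontal axis), of the 10 genes in SUM149PT and HCC1937, with 95% intervals from limma and filled points for an adjusted p of at most 0.05. KCNMA1 is at 2.89 and 1.19 and ATP2C2 at -4.20 and -2.88 in the respective lines, and under TPM rescaling KCNN4 and ITPR2 change sign in HCC1937.

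KCNMA1 encodes the pore-forming subunit of the big-conductance potassium channel, which opens with voltage and with calcium. Its position is chr10:76869601-77638369 (GRCh38, reverse strand), where GENCODE 29 annotates 93 transcripts. The primers of the study's PCR assay show which stretch of this long gene was assayed there. The forward primer lies in exon 3 of a transcript with 30 exons, from 77251226 to 77251246, and the reverse primer in exon 4, from 77184823 to 77184843. Both are coding sequence, give a product of 146 bases on that transcript, and match 69 of the 93 transcripts and no other gene as a pair.
KCNMA1 forward primer: tctttgctctcagcatcggtg
KCNMA1 reverse primer: ccgcaagccgaagtagagaag

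KCNMA1 was at 3.75, 3.51 and 3.96 FPKM in the SUM149PT CSC libraries and at 0.366, 0.443 and 0.446 FPKM in the non-CSC libraries. Every CSC library stood above every non-CSC library of the line. The means differed 8.95-fold, with a log2 fold change of 2.89 (SE 0.0888, limma adjusted p 3.97e-06). In HCC1937 the CSC libraries were at 0.326, 0.321 and 0.360 FPKM and the non-CSC libraries at 0.0700, 0.124 and 0.0836 FPKM. The fractions again did not overlap, but all 6 values were under 0.4 FPKM. The means differed 3.62-fold and the log2 fold change was 1.19 (SE 0.120, limma adjusted p 0.00163). Over the alternatives that value ranged from 0.29 to 1.79, with a highest adjusted p of 0.0155. SUM159PT was at 1.51, 1.43 and 1.51 FPKM. From highest to lowest, the order of the groups was SUM149PT CSCs, SUM159PT, SUM149PT non-CSCs, HCC1937 CSCs and HCC1937 non-CSCs, and no neighbours overlapped.

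RefSeq lists 2 starts of KCNMA1 in the promoter table used (GRCh38.p14), and 6 of the 10 genes have at least 1 window there. The 250 bases before both KCNMA1 starts are shown because KCNMA1, with ITPR1 and ATP2B4, was called higher in CSCs of both lines. Capitals mark 4 short motifs searched on both strands. The TATA box was searched as TATAAA, which 10.7% of 35116 windows of this length hold. The AP-1 site was searched as TGAGTCA, held by 4.2% of windows. An E-box bound by ZEB and SNAI factors was searched as CAGGTG, held by 17.5%, and the GC box as GGGCGG, held by 42.6%. These motifs were picked after some of the windows had been read, and a match is a description of letters only. The table of FPKM is by gene, so it does not show which start was used.
KCNMA1 chr10:77637809-77638058 (reverse strand): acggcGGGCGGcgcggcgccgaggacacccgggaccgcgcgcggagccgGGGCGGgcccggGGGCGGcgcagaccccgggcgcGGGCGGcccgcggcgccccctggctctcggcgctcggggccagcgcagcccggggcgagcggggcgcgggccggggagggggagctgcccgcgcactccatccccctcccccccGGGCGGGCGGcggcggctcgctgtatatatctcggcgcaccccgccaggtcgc
KCNMA1 chr10:77350762-77351011 (reverse strand): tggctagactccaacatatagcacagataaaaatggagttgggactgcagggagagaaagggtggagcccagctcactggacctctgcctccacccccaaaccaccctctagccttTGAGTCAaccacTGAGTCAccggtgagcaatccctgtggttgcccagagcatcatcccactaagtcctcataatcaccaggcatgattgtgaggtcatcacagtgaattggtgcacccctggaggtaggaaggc

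The first window has 85.6% G and C and holds 6 matches to GGGCGG, of which 2 overlap each other. The second has 53.6% G and C and holds 2 matches to TGAGTCA, the first base of each lying 134 and 122 bases before the start. Neither window holds TATAAA or CAGGTG.

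KCNN4, the intermediate-conductance calcium-activated potassium channel, went the other way in SUM149PT. It was at 5.62, 5.69 and 5.07 FPKM in CSCs and at 27.0, 26.8 and 27.3 FPKM in non-CSCs. The fractions did not overlap, the CSC mean was 4.95-fold lower, and the log2 fold change was -2.29 (SE 0.0653, limma adjusted p 3.38e-06). The HCC1937 values were 28.1, 26.7 and 27.6 FPKM in CSCs and 28.7, 32.3 and 25.8 FPKM in non-CSCs. These fractions overlapped, and the difference of -0.07 had a 95% interval of -0.31 to 0.17 on the log2 scale. Its sign changed when HCC1937 non-CSC replicate 2, the highest library, was left out (0.01, adjusted p 0.943, in a range of 0.312 to 0.955 over the alternatives). SUM159PT held 3.76, 4.32 and 4.18 FPKM. HCC1937 non-CSCs, HCC1937 CSCs and SUM149PT non-CSCs were the upper 3 groups, and neighbours among them overlapped. SUM149PT CSCs and then SUM159PT followed, without overlap.

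The ratio of KCNMA1 to KCNN4 within a library is unchanged by any single factor applied to that library, although quantile normalization can change it. It was 0.668, 0.618 and 0.781 in SUM149PT CSCs and 0.0136, 0.0165 and 0.0163 in SUM149PT non-CSCs. SUM159PT held 0.402, 0.330 and 0.363. In HCC1937 it averaged 0.0122 ± 0.000761 (SD, n = 3) in the CSC libraries and 0.00318 ± 0.000708 in the others. KCNN4 exceeded KCNMA1 per unit of length in all 15 libraries, by the least in SUM149PT CSCs and SUM159PT.

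The list of calcium-activated potassium channel genes, with the beta and gamma subunits of the big-conductance channel, holds 13 genes of the table. In SUM149PT 7 were tested, with 3 called higher and 3 lower (85.7%, against 74.8% of all genes). In HCC1937 5 were tested, and KCNMA1 was the only call (20%, against 25.6% of all genes). LRRC26, a gamma subunit that lets the channel open at lower voltage, had the highest mean of the list's other genes over the 12 sorted libraries, a rank that rests on HCC1937. It averaged 0.175 FPKM in SUM149PT non-CSCs, where other genes of the list were higher. It was listed at 0 in all 3 SUM149PT CSC libraries and at 2.75, 2.36 and 2.43 FPKM in HCC1937 CSCs. In HCC1937 non-CSCs it was at 1.34, 2.35 and 1.26 FPKM, a difference that was not called (log2 0.63, adjusted p 0.117). Without non-CSC replicate 2 of HCC1937 it was called (0.90, adjusted p 0.00782).

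TNNC1 encodes the calcium-binding troponin subunit of slow skeletal and cardiac muscle. Its position is chr3:52451102-52454070 (reverse strand), and its longest coding transcript has 727 bases, the shortest such length of the 10 genes. The study's primers are shown because they match every annotated transcript, 3 of 3, and no other gene as a pair. They lie in exon 4 (52451800 to 52451819) and exon 5 (52451506 to 52451526), in coding sequence, with a product of 98 bases.
TNNC1 forward primer: tggttcggtgcatgaaggac
TNNC1 reverse primer: gtcgatgtagccatcagcatt

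In HCC1937 TNNC1 was at 1.36, 1.06 and 0.463 FPKM in CSCs and at 5.04, 3.00 and 4.40 FPKM in non-CSCs. All CSC libraries were below all non-CSC libraries. The CSC mean was 4.31-fold lower, with a log2 fold change of -2.08 (SE 0.398, limma adjusted p 0.0145). Leaving out non-CSC replicate 1 or 3 took the adjusted p to 0.0565 and 0.0516, in a range of 0.00266 to 0.0565 over the alternatives, with the direction kept. In SUM149PT it was at 0.194, 0.226 and 0.0906 FPKM in CSCs and at 1.02, 0.781 and 0.190 FPKM in non-CSCs. Non-CSC replicate 3 fell among the CSC values, so the fractions overlapped. The log2 fold change of -1.32 (SE 0.545) was not called, at an adjusted p of 0.0703. With all 6 libraries it was called when 1 FPKM was added (-0.47, adjusted p 0.0467), with a variance trend (adjusted p 0.0427, or 0.0398 with robust variances) and in a fit over all 15 libraries (adjusted p 0.0270). A replicate block called it too (adjusted p 0.0206), although same-numbered fractions share only a number in the labels. The log2 fold change became -1.91 (adjusted p 0.00309) without non-CSC replicate 3. Without replicate 3 of both fractions, an alternative chosen after the values were seen, it was -1.68 (adjusted p 0.00290), in a range of 0.00290 to 0.246 over the alternatives. SUM159PT was at 0.873, 0.527 and 0.479 FPKM. The order was HCC1937 non-CSCs, HCC1937 CSCs, SUM149PT non-CSCs, SUM159PT and SUM149PT CSCs, in which HCC1937 CSCs overlapped SUM149PT non-CSCs, and these overlapped SUM159PT.

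Other striated muscle genes were set beside TNNC1. The list of 14 striated muscle markers summed to 1.79, 3.13 and 2.31 FPKM in SUM149PT CSCs and to 7.60, 6.90 and 7.20 FPKM in non-CSCs. In HCC1937 the sums were 7.78, 5.97 and 5.50 FPKM in CSCs and 13.8, 14.1 and 12.3 FPKM in non-CSCs. The sums were lower in the CSC libraries of both lines without overlap, and SUM159PT lay between 3.17 and 3.77 FPKM. Most of the list was at or near 0: 5 to 7 of the 14 genes were at 0 in a whole group, and the cardiac myosin genes MYH6 and MYH7 and the natriuretic peptide gene NPPA were at 0 in all 15 libraries. SMDT1, of the mitochondrial uniporter list and picked after its values were seen, was also at 0 in all 15. Without read counts, an exact 0 may mean that a gene was not quantified. MB, myoglobin, had the highest mean over the sorted libraries, though not within SUM149PT CSCs, with means of 1.03 and 2.60 FPKM in CSCs and non-CSCs of SUM149PT and 3.56 and 7.53 FPKM in HCC1937. MB was called lower in both lines (-1.28, adjusted p 0.00303; -1.07, adjusted p 0.00569). Of the list, 4 of 5 genes tested were called in SUM149PT, all lower, where 74.8% of all genes were called. In HCC1937 4 of 6 were called, against 25.6% of all genes, with 3 lower and DES higher (1.32, adjusted p 0.00473). The count in SUM149PT ranged from 2 to 4 when any 1 library was left out. Whether TNNC1 and these genes share a cause was not tested.

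Of the troponin and calmodulin list, 10 genes were tested in SUM149PT, with 2 called higher and 4 lower (60%, against 74.8% of all genes). In HCC1937 12 were tested, with 0 higher and 4 lower (33.3%, against 25.6%), a count that fell to 2 without non-CSC replicate 1 or 3. TNNT2 and CALML5 were called lower in CSCs of both lines. TNNT2, cardiac troponin T, averaged 0.0339 FPKM in CSCs and 1.71 FPKM in non-CSCs of SUM149PT, and 0.0163 and 0.766 FPKM in HCC1937. CALML5, a calmodulin-like protein of stratified epithelium, was at 25.8, 20.3 and 18.0 FPKM in HCC1937 CSCs and at 77.5, 86.7 and 64.9 FPKM in non-CSCs. In SUM149PT it stayed under 0.7 FPKM in all 6 libraries, with means of 0.0670 FPKM in CSCs and 0.568 FPKM in non-CSCs. In SUM159PT it was listed at 0. The CSC means of TNNT2 in both lines and of CALML5 in SUM149PT were below the 0.1 FPKM added. There these genes passed the minimum only through the non-CSC libraries, and the sizes of their changes depend on the amount added. CALM2, which encodes calmodulin itself, had the highest mean of the list in each sorted group. It averaged 252 FPKM in CSCs and 172 FPKM in non-CSCs of SUM149PT (log2 0.55, adjusted p 0.00116), and 197 and 233 FPKM in HCC1937 (-0.24, adjusted p 0.118, called at 0.0385 in the fit of all 15 libraries).

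ITPR1, ITPR2 and ITPR3 encode the 3 types of inositol trisphosphate receptor, the channels that release calcium from the ER. ITPR1 lies on the forward strand of chromosome 3, from 4493345 to 4847840, with 56 transcripts. The study's ITPR1 primers are shown because they match only 13 of these. They lie in exon 6 of a transcript with 62 exons (4639431 to 4639450) and exon 7 (4642161 to 4642181), in coding sequence, with a product of 129 bases and no match to another gene as a pair.
ITPR1 forward primer: attgctggggaccgtaatcc
ITPR1 reverse primer: tccaatgtgactctcatggca

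The RefSeq windows before the starts of ITPR1 and ITPR3 are shown as the receptor types that moved in opposite directions in both lines.
ITPR1 chr3:4493098-4493347 (forward strand): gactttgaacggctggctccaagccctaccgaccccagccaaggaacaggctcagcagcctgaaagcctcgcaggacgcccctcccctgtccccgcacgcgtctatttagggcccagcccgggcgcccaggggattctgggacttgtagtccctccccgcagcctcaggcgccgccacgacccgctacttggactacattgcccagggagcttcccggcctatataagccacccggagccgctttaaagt
ITPR3 chr6:33621072-33621321 (forward strand): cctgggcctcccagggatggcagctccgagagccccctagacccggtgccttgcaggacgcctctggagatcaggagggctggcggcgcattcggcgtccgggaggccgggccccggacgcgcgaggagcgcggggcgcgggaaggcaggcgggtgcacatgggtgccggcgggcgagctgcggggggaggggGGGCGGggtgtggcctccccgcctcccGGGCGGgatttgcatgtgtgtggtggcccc

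With the same marking, the ITPR1 window holds none of the 4 motifs, and the ITPR3 window holds 2 matches to GGGCGG. They have 64.8% and 76.8% G and C.

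ITPR1 was at 8.67, 8.06 and 8.45 FPKM in SUM149PT CSCs and at 3.37, 3.31 and 3.35 FPKM in non-CSCs. The CSC libraries were all higher, 2.51-fold by the means, with a log2 fold change of 1.30 (SE 0.0546, limma adjusted p 9.95e-06). In HCC1937 it was at 0.344, 0.337 and 0.309 FPKM in CSCs and at 0.169, 0.101 and 0.151 FPKM in non-CSCs. The CSC libraries were again all higher, 2.35-fold (log2 0.85, SE 0.124, adjusted p 0.00564), at a level 25.5-fold below that of SUM149PT CSCs. The HCC1937 log2 fold change ranged from 0.22 to 1.21 over the alternatives. SUM159PT held 0.410, 0.438 and 0.498 FPKM. The 5 groups did not overlap, in the order SUM149PT CSCs, SUM149PT non-CSCs, SUM159PT, HCC1937 CSCs and HCC1937 non-CSCs.

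ITPR2 was at 2.53, 2.30 and 2.36 FPKM in SUM149PT CSCs and at 5.05, 4.41 and 4.52 FPKM in non-CSCs. Here the CSC libraries were all lower (log2 -0.93, SE 0.0766, adjusted p 0.000118). HCC1937 CSCs were at 0.788, 1.09 and 0.995 FPKM and non-CSCs at 0.877, 0.984 and 1.21 FPKM. These overlapped, and the difference of -0.09 (95% interval -0.48 to 0.31, adjusted p 0.737) changed sign without CSC replicate 1 (0.04) or non-CSC replicate 3 (0.03). SUM159PT was at 0.0252, 0.0452 and 0.0569 FPKM, below every sorted library. The order was SUM149PT non-CSCs, SUM149PT CSCs, HCC1937 non-CSCs, HCC1937 CSCs and SUM159PT, and the HCC1937 fractions were the only neighbours to overlap.

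ITPR3 was the receptor with the highest FPKM in every library. It was at 38.6, 36.2 and 38.7 FPKM in SUM149PT CSCs and at 53.7, 55.3 and 56.6 FPKM in non-CSCs, without overlap (log2 -0.54, SE 0.0574, adjusted p 0.000327). HCC1937 CSCs held 31.5, 31.4 and 30.9 FPKM and non-CSCs 37.8, 39.0 and 45.3 FPKM. The HCC1937 fractions did not overlap either (log2 -0.37, SE 0.0892, adjusted p 0.0306). That call was lost when any of the 3 CSC libraries or non-CSC replicate 2 or 3 was left out. It was also lost under all 3 scalings, with adjusted p from 0.00688 to 0.226 over the alternatives and the direction kept. SUM159PT was at 25.6, 32.1 and 30.7 FPKM. The order was SUM149PT non-CSCs, HCC1937 non-CSCs, SUM149PT CSCs, HCC1937 CSCs and SUM159PT. HCC1937 non-CSCs overlapped SUM149PT CSCs, and HCC1937 CSCs overlapped SUM159PT.

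The make-up of the 3 receptors was taken as a percentage of their summed FPKM within a library, which a single factor per library leaves unchanged and quantile normalization may not. ITPR1 made up 17.4%, 17.3% and 17.1% of the sum in SUM149PT CSCs and 5.42%, 5.26% and 5.20% in non-CSCs. In HCC1937 it made up 1.05%, 1.03% and 0.960% in CSCs and 0.434%, 0.253% and 0.323% in non-CSCs. The share of ITPR1 was thus higher in the CSC libraries of both lines without overlap. In SUM159PT it was 1.51% ± 0.139 (SD, n = 3). ITPR3 held a mean of 77.8% in SUM149PT CSCs, 87.3% in SUM149PT non-CSCs, 96.0% and 97.2% in HCC1937 CSCs and non-CSCs, and 98.4% in SUM159PT. The summed FPKM of the 3 genes as deposited was lower in CSCs, at 48.6 ± 1.75 against 63.2 ± 1.18 in SUM149PT (SD, n = 3). In HCC1937 it was 32.5 ± 0.319 against 41.8 ± 4.24 (SD, n = 3). Unlike the percentages, these sums change with a factor per library, and they were not tested. The HCC1937 call of ITPR3, which held most of the sum, was lost under all 3 scalings.

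2 neighbouring genes bear on how these values were read, and UQCC2 was chosen after its values were seen. UQCC2 lies on the opposite strand and overlaps an exon of ITPR3, and the labels do not say whether the libraries kept the strand. UQCC2 averaged 11.9 and 13.3 FPKM in CSCs and non-CSCs of SUM149PT, 31.5 and 42.0 FPKM in those of HCC1937 and 60.0 FPKM in SUM159PT. It was not called between the fractions of SUM149PT (-0.17, adjusted p 0.357) or of HCC1937 (-0.41, adjusted p 0.0752), and its part in the ITPR3 values was not tested. ITPR1-AS1 is a RefSeq synonym of ITPR1-DT, which lies on chromosome 3 from 4490317 to 4493163, outside the transcripts of ITPR1. It had group means of 0.0928 to 0.784 FPKM and was not called in SUM149PT (0.51, adjusted p 0.185, called at 0.0219 after quantile normalization) or in HCC1937 (-0.08, adjusted p 0.917).

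The ER release channel list, which adds ryanodine receptors and regulators, holds 9 genes of the table. In SUM149PT 5 were tested, with 2 called higher and 2 lower (80%, against 74.8% of all genes). In HCC1937 6 were tested, with 1 called higher and 4 lower (83.3%, against 25.6%), a count of 5 that became 2 or 3 when any 1 library was left out. SSFA2, which encodes an inositol trisphosphate receptor-binding protein, had the highest mean of the others over the sorted libraries, though not in either fraction of SUM149PT. It was not called in SUM149PT (0.07, adjusted p 0.339) and was called lower in HCC1937 (-0.31, adjusted p 0.0288), a call lost without any 1 of the 6 libraries. Another gene of the list was called in opposite directions in the 2 lines.

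ORAI1 encodes the pore of the store-operated channel. It was at 20.4, 24.6 and 22.7 FPKM in SUM149PT CSCs and at 17.0, 16.1 and 16.5 FPKM in non-CSCs. The CSC libraries were all higher, 1.36-fold by the means (log2 0.44, SE 0.0836, adjusted p 0.00408). HCC1937 CSCs were at 17.2, 16.3 and 16.0 FPKM and non-CSCs at 16.3, 16.1 and 15.3 FPKM, which overlapped. The difference there was 0.06, with a 95% interval of -0.11 to 0.22 (adjusted p 0.595). SUM159PT held the highest values, 36.9, 32.8 and 34.7 FPKM. It was followed by SUM149PT CSCs, SUM149PT non-CSCs, HCC1937 CSCs and HCC1937 non-CSCs, of which the last 3 groups overlapped as neighbours.

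STIM1 encodes the sensor of ER calcium that opens ORAI1. It was at 5.61, 5.43 and 5.70 FPKM in SUM149PT CSCs and at 11.4, 10.6 and 10.2 FPKM in non-CSCs. The CSC mean was 1.92-fold lower, without overlap (log2 -0.93, SE 0.0639, adjusted p 5.67e-05). HCC1937 CSCs were at 8.21, 7.73 and 7.63 FPKM and non-CSCs at 8.97, 8.76 and 9.48 FPKM. Those fractions did not overlap either, but the difference of -0.20 (SE 0.0691) was not called, at an adjusted p of 0.0851. A fit over all 15 libraries called it (adjusted p 0.0414, in a range of 0.0414 to 0.568 over the alternatives). SUM159PT was at 19.1, 21.6 and 21.8 FPKM. The order was SUM159PT, SUM149PT non-CSCs, HCC1937 non-CSCs, HCC1937 CSCs and SUM149PT CSCs, with no overlap between neighbours.

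STIM1 and ORAI1 thus moved in opposite directions in SUM149PT. The ratio of STIM1 to ORAI1 FPKM was 0.276, 0.221 and 0.251 in SUM149PT CSCs and 0.669, 0.660 and 0.618 in non-CSCs. It was 0.476, 0.474 and 0.476 in HCC1937 CSCs and 0.549, 0.545 and 0.620 in non-CSCs. The CSC libraries had the lower ratio in both lines without overlap. SUM159PT, treated by the study as CSCs, had ratios of 0.519, 0.659 and 0.628, above all sorted CSC libraries.

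Of the 8 genes of the store-operated entry list, all were tested in both lines. In SUM149PT 3 were called higher and 3 lower (75%), and in HCC1937 2 were called higher and 0 lower (25%), close to the 74.8% and 25.6% of all genes. ORAI2, a second pore gene, was called higher in CSCs of both lines. It was at 3.70, 3.42 and 3.57 FPKM in CSCs and at 2.13, 2.01 and 2.40 FPKM in non-CSCs of SUM149PT (log2 0.68, adjusted p 0.000560). HCC1937 held 2.13, 2.17 and 2.37 FPKM in CSCs and 1.30, 1.47 and 1.48 FPKM in non-CSCs (0.62, adjusted p 0.00414). ORAI3, another pore gene, chosen after its values were seen, went the other way in SUM149PT. It averaged 10.3 FPKM in CSCs and 18.2 FPKM in non-CSCs there (-0.82, adjusted p 0.000331), and 7.51 and 8.23 FPKM in HCC1937 (-0.13, adjusted p 0.429). TMEM66, also named SARAF, which turns the channel off, had the highest mean of the list in each sorted group. Its log2 fold change was 0.58 (adjusted p 0.000182) in SUM149PT and 0.12 (adjusted p 0.372) in HCC1937.

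ATP2B4 encodes a calcium pump of the plasma membrane, PMCA4. The window before its RefSeq start on chromosome 1 is shown as that of the third gene called higher in CSCs of both lines. It holds 1 match to GGGCGG, in capitals, and none of the other 3 motifs.
ATP2B4 chr1:203626582-203626831 (forward strand): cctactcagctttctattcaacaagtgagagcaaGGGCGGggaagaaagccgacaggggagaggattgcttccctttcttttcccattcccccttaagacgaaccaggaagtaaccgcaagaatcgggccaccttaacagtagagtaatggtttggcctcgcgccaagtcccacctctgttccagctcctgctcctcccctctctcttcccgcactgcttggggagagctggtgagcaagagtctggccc

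ATP2B4 was at 44.7, 42.0 and 44.9 FPKM in SUM149PT CSCs and at 23.0, 21.1 and 21.8 FPKM in non-CSCs. The CSC libraries were all higher, 2.00-fold by the means (log2 0.99, SE 0.0628, adjusted p 4.16e-05). In HCC1937 it was at 31.4, 34.9 and 34.3 FPKM in CSCs and at 23.6, 24.3 and 28.7 FPKM in non-CSCs. The CSC libraries were again all higher, 1.31-fold (log2 0.40, SE 0.1003, adjusted p 0.0373). This call was lost when any of the 3 CSC libraries or non-CSC replicate 1 or 2 was left out and under all 3 scalings, with adjusted p from 0.0102 to 0.121 over the alternatives and the direction kept. SUM159PT was at 2.75, 3.13 and 3.64 FPKM. The order was SUM149PT CSCs, HCC1937 CSCs, HCC1937 non-CSCs, SUM149PT non-CSCs and SUM159PT, and no neighbours overlapped.

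ATP2C2 encodes the secretory pathway calcium pump SPCA2, which in the breast is tied to secretory epithelium. It was at 0.451, 0.492 and 0.503 FPKM in SUM149PT CSCs and at 10.7, 10.4 and 10.8 FPKM in non-CSCs. The CSC mean was 22.0-fold lower, and the log2 fold change of -4.20 (SE 0.0593, adjusted p 1.40e-06) was the largest in size among the 10 genes in that line. The HCC1937 libraries held 1.03, 1.56 and 1.11 FPKM in CSCs and 10.01, 9.07 and 9.59 FPKM in non-CSCs. There the CSC mean was 7.76-fold lower, without overlap (log2 -2.88, SE 0.157, adjusted p 0.000264). SUM159PT was at 0.00995 FPKM in replicate 1 and at 0 in replicates 2 and 3. The order was SUM149PT non-CSCs, HCC1937 non-CSCs, HCC1937 CSCs, SUM149PT CSCs and SUM159PT, without overlap between neighbours.

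Each pump was set against its nearest relative within a library. ATP2C1, which encodes the broadly expressed pump SPCA1, was at 16.1 and 14.3 FPKM in CSCs and non-CSCs of SUM149PT, 18.1 and 18.5 FPKM in those of HCC1937 and 1.45 FPKM in SUM159PT. It was picked for these ratios after its values were seen. The ratio of ATP2C2 to ATP2C1 was 0.0265, 0.0318 and 0.0320 in SUM149PT CSCs and 0.712, 0.757 and 0.756 in non-CSCs. In HCC1937 it was 0.0619, 0.0850 and 0.0577 in CSCs and 0.575, 0.475 and 0.504 in non-CSCs. All CSC libraries of both lines were below all non-CSC libraries. ATP2B1, another plasma membrane pump, was called higher in CSCs of both lines, as ATP2B4 was (1.41, adjusted p 2.79e-05 in SUM149PT; 0.62, adjusted p 0.00774 in HCC1937). The ratio of ATP2B4 to ATP2B1 was lower in CSCs, at 2.58 ± 0.0418 against 3.49 ± 0.296 in SUM149PT and 1.79 ± 0.113 against 2.09 ± 0.0703 in HCC1937 (SD, n = 3). In SUM159PT it was 8.85 ± 0.737 (SD, n = 3).

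**Figure D3:**
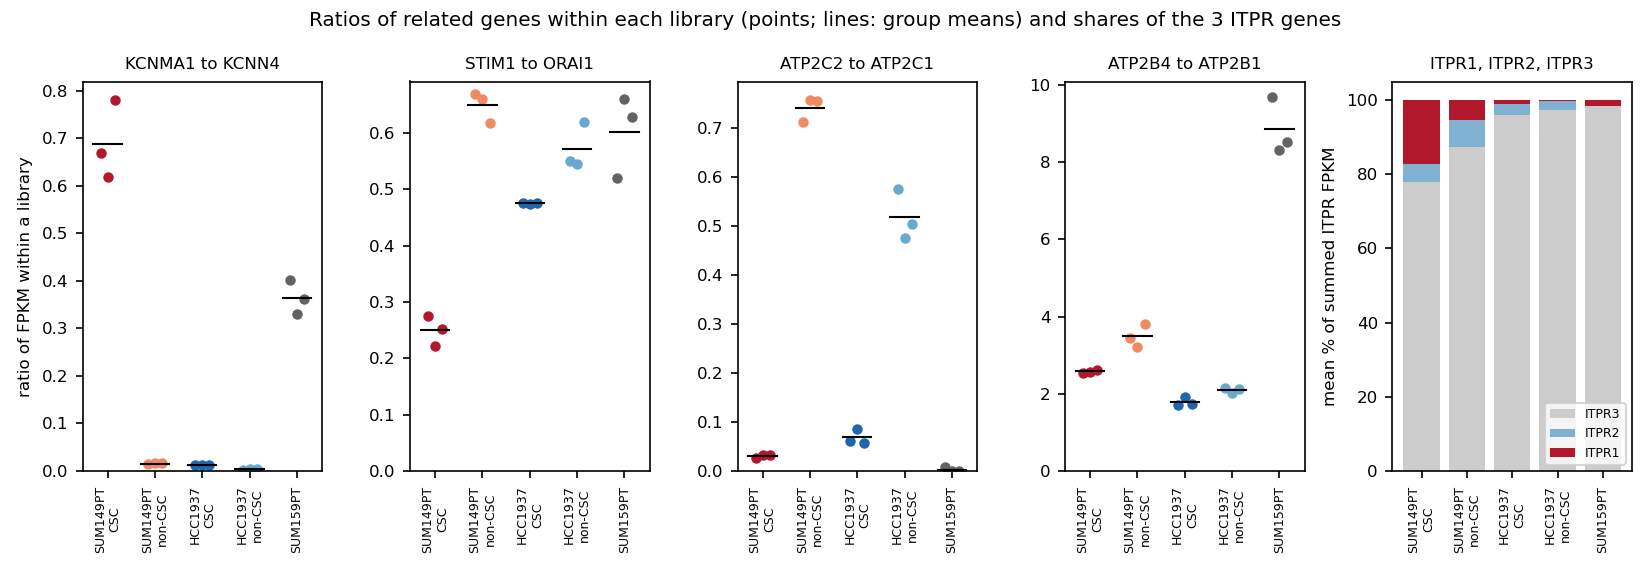
FPKM ratios of related genes within each library (points, with group means as lines) and the mean percentage of summed ITPR FPKM held by each receptor gene (bars). The STIM1 to ORAI1 ratio averages 0.249 in SUM149PT CSCs and 0.649 in non-CSCs, and ITPR1 makes up 17.3% of the ITPR sum in SUM149PT CSCs and 5.29% in non-CSCs.

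The pump and exchanger list holds 13 genes of the table, of which 9 were tested in each line. In SUM149PT 3 were called higher and 3 lower (66.7%, against 74.8% of all genes), and in HCC1937 3 higher and 2 lower (55.6%, against 25.6%), a count of 5 that fell to 3 without CSC replicate 2 or 3. All 5 calls of HCC1937 went in the same direction in SUM149PT: ATP2B4, ATP2B1 and SLC8A1 were higher, and ATP2C2 and SLC8B1 were lower. SLC8A1, the sodium-calcium exchanger, averaged 0.953 FPKM in CSCs and 0.173 FPKM in non-CSCs of SUM149PT (log2 1.95, adjusted p 3.36e-06). In HCC1937 it averaged 1.02 and 0.474 FPKM (0.98, adjusted p 0.0214), and that call was lost without CSC replicate 2 or 3. SLC8B1, which exports calcium from mitochondria in exchange for sodium, fell by 0.52 in SUM149PT (adjusted p 0.000459) and by 0.66 in HCC1937 (adjusted p 0.00270) on the log2 scale. ATP2A2, the ER pump SERCA2, had the highest mean of the list over the sorted libraries, though ATP2B4 was above it in SUM149PT CSCs. ATP2A2 was not called in either line (-0.10, adjusted p 0.185; 0.10, adjusted p 0.349).

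The CSC effects of the 2 sorted lines were compared by an interaction over the 12 sorted libraries, in which 61.1% of the 16451 genes tested were called. Of the 10 genes, 8 were called, 4 with the higher effect in SUM149PT and 4 with the lower. The difference, SUM149PT minus HCC1937 on the log2 scale, was 1.71 for KCNMA1 (SE 0.152, adjusted p 6.94e-06), 0.60 for ATP2B4 (SE 0.116, adjusted p 0.00132) and 0.38 for ORAI1 (SE 0.103, adjusted p 0.00841). It was -2.22 for KCNN4 (SE 0.116, adjusted p 1.87e-07), -1.33 for ATP2C2 (SE 0.173, adjusted p 9.60e-05), -0.84 for ITPR2 (SE 0.183, adjusted p 0.00266) and -0.73 for STIM1 (SE 0.0862, adjusted p 4.99e-05). The KCNMA1 difference ranged from 1.35 to 2.08 over the alternatives, and its HCC1937 non-CSC mean of 0.0927 FPKM is below the 0.1 FPKM added. For ITPR1 the difference was 0.45 (SE 0.136, adjusted p 0.0155). The folds of ITPR1 in the 2 lines were close, 2.51 and 2.35, and its level in HCC1937 was near the 0.1 FPKM that is added. With 0.01 FPKM added the difference was 0.12 (adjusted p 0.649) and after TPM rescaling 0.17 (adjusted p 0.510), in a range of 3.09e-07 to 0.649 over the alternatives. No difference was called for ITPR3 (-0.17, 95% interval -0.40 to 0.06, adjusted p 0.175) or TNNC1 (0.75, 95% interval -0.87 to 2.38, adjusted p 0.395). Without HCC1937 non-CSC replicate 3 the ITPR3 difference was -0.25 (adjusted p 0.0212, in a range of 0.0212 to 0.345), and with 1 FPKM added the TNNC1 difference was 0.92 (adjusted p 0.0226, in a range of 0.0226 to 0.819). When 1 library was left out, the TNNC1 difference ranged from 0.16 to 1.14.

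Over 11 lists of calcium genes, which hold 148 genes of the table and include the 10 genes, 99 were tested in SUM149PT and 82 of them called (82.8%, against 74.8% of all genes), 39 higher and 43 lower. In HCC1937 92 were tested and 40 called (43.5%, against 25.6% of all genes), 17 higher and 23 lower. The median log2 fold changes of these genes were -0.15 and -0.07. Of the 85 genes tested in both lines, 24 (28.2%) had calls that matched in direction, 12 higher and 12 lower, and 6 in opposite directions. Over all genes 2315 of 14423 (16.1%) matched and 842 were opposite. The lists too were chosen with earlier results of these data known, so these shares are not a test.

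**Figure D4:**
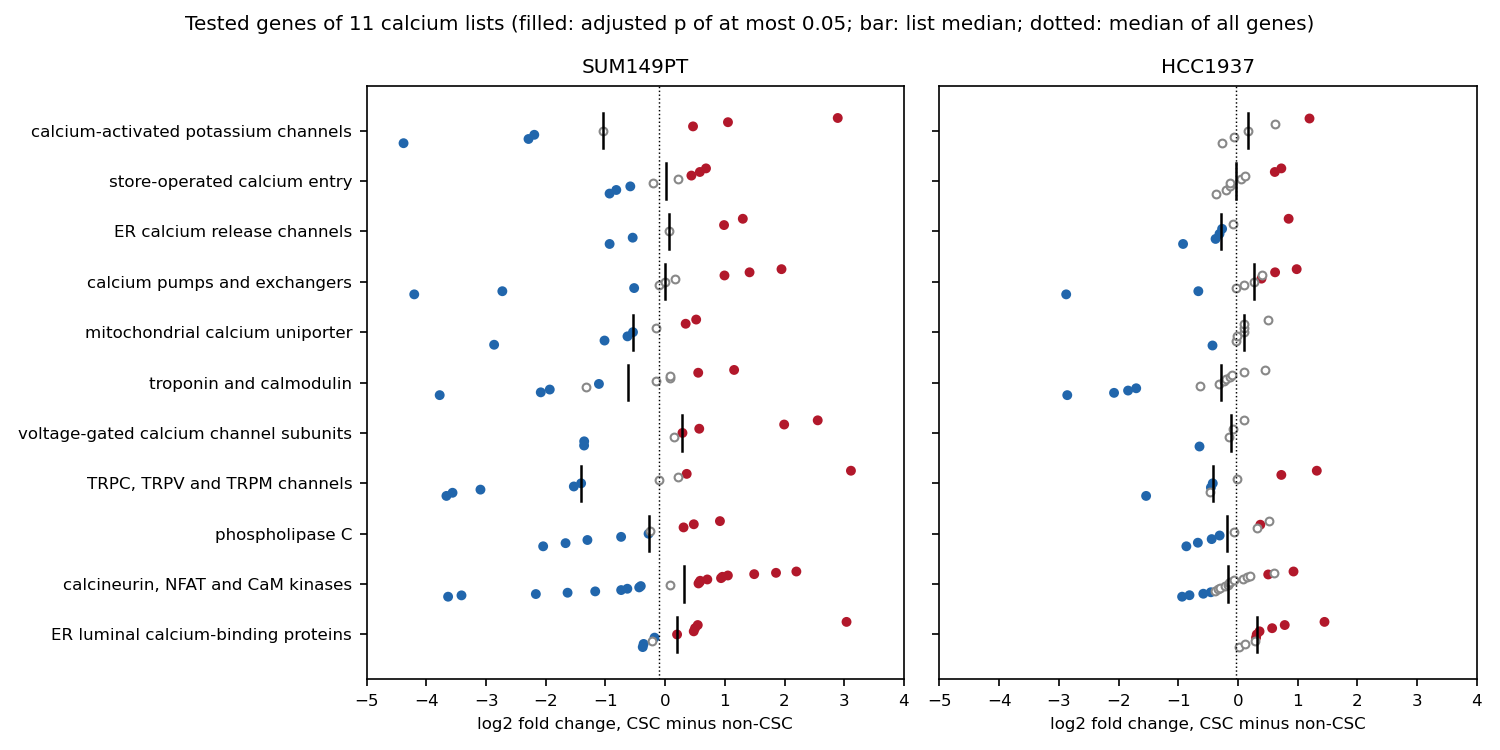
Log2 fold change, CSC minus non-CSC (horizontal axis), of each tested gene of the 11 calcium lists in SUM149PT and HCC1937, with bars for list medians, a dotted line for the median of all genes and filled points for an adjusted p of at most 0.05. The lowest and highest list medians are -1.41 and 0.32 in SUM149PT and -0.42 and 0.32 in HCC1937.

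The list of ER luminal calcium-binding proteins had 6 of 9 genes called higher in CSCs of HCC1937 and 0 lower, against 10.3% and 15.3% of all genes. That count became 3 or 4 when any 1 library was left out. In SUM149PT 5 of 9 were higher and 3 lower, against 33.3% and 41.5% of all genes, and 2 genes were called in opposite directions in the 2 lines. RCN3, reticulocalbin 3, was at 185, 219 and 194 FPKM in SUM149PT CSCs and at 21.9, 22.0 and 29.0 FPKM in non-CSCs (log2 3.04, adjusted p 1.28e-05). In HCC1937 it was at 14.3, 13.2 and 13.8 FPKM in CSCs and at 4.76, 5.38 and 4.79 FPKM in non-CSCs (1.45, adjusted p 0.000264). SUM159PT averaged 163 FPKM of RCN3. CALU (calumenin), CANX (calnexin) and HSP90B1 were also called higher in both lines. Their log2 fold changes in SUM149PT were 0.55, 0.50 and 0.48, and in HCC1937 0.78, 0.57 and 0.30. SUM159PT held these 3 genes at means of 5.79, 23.3 and 17.9 FPKM, below every sorted library. The HSP90B1 call in HCC1937 (adjusted p 0.0322) was lost without any 1 of the 6 libraries. CALR, calreticulin, had the highest mean of the list over the sorted libraries, though not in SUM149PT CSCs, and moved differently. It fell by 0.38 in SUM149PT (adjusted p 0.00252) and was not called in HCC1937 (0.12, adjusted p 0.266).

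Among the TRPC, TRPV and TRPM channels, cation channels of which many pass calcium, 9 of 20 were tested in SUM149PT (2 higher, 5 lower) and 7 in HCC1937 (2 higher, 3 lower). The calls were 77.8% and 71.4% of those tested, against 74.8% and 25.6% of all genes. TRPC4 was at 7.29, 7.41 and 7.05 FPKM in SUM149PT CSCs and at 0.519, 0.918 and 0.871 FPKM in non-CSCs (log2 3.11, adjusted p 4.35e-05). It was at 1.14, 1.14 and 1.08 FPKM in HCC1937 CSCs and at 0.449, 0.316 and 0.409 FPKM in non-CSCs (1.32, adjusted p 0.00106). TRPV4, a channel opened by osmotic and mechanical stimuli, went the other way. It averaged 0.477 FPKM in CSCs and 4.73 FPKM in non-CSCs of SUM149PT (-3.09, adjusted p 3.82e-05) and 1.60 and 4.85 FPKM in HCC1937 (-1.54, adjusted p 0.000399). TRPM4, which is opened by calcium but passes monovalent cations, was the most abundant of the list. It was not called in SUM149PT (-0.10, adjusted p 0.197) and was called lower in HCC1937 (-0.45, adjusted p 0.0101).

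Phospholipase C enzymes make the inositol trisphosphate that opens the ITPR channels. In SUM149PT 9 of the 12 genes were tested, with 3 called higher and 5 lower, and in HCC1937 8 were tested, with 1 higher and 4 lower, a count of 5 that became 3 or 4 without any 1 library. These were 88.9% and 62.5% of those tested, against 74.8% and 25.6% of all genes. PLCD3, PLCG2 and PLCD1 were called lower in CSCs of both lines, with log2 fold changes of -1.30, -1.67 and -2.04 in SUM149PT and -0.67, -0.86 and -0.44 in HCC1937. The call of PLCD1 in HCC1937 (adjusted p 0.0335) was lost without any library but non-CSC replicate 3. PLCD3 also had the highest mean of the list in each group but SUM149PT CSCs. Opposite directions in the lines were called for 1 gene of the list.

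Calcineurin, NFAT factors and calmodulin kinases read the calcium signal. In SUM149PT 20 of 22 genes were tested, with 10 called higher and 9 lower (95%, against 74.8% of all genes), and in HCC1937 18 were tested, with 2 higher and 4 lower (33.3%, against 25.6%). NFATC4 was at 0.315, 0.228 and 0.311 FPKM in SUM149PT CSCs and at 5.09, 5.07 and 3.91 FPKM in non-CSCs (log2 -3.64, adjusted p 8.79e-06). The values in HCC1937 were 0.393, 0.390 and 0.315 FPKM in CSCs and 0.682, 0.702 and 0.764 FPKM in non-CSCs (-0.81, adjusted p 0.00269). CAMK1D (-1.63 and -0.58) and CAMK2G (-0.41 and -0.45) were called lower in both lines, and PPP3CC (0.56 and 0.51), a catalytic subunit of calcineurin, was called higher in both. Of the others, 1 gene was called in opposite directions in the lines. PPP3CA, with the highest mean over the sorted libraries though not in either fraction of SUM149PT, was called higher in SUM149PT only (0.59, adjusted p 0.000858, and -0.17, adjusted p 0.211).

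Of the mitochondrial uniporter genes, 7 of 8 were tested in each line, with 2 higher and 4 lower in SUM149PT (85.7%, against 74.8% of all genes). In HCC1937 0 were higher and 1 lower (14.3%, against 25.6%), which became 0 without CSC replicate 2 or without non-CSC replicate 1 or 3. That gene was called in the opposite direction, higher in CSCs, in SUM149PT. MICU2, a gatekeeper of the uniporter and the gene of that list with the highest mean in each sorted group, fell by 0.54 in SUM149PT (adjusted p 0.00768) and was not called in HCC1937 (0.10, adjusted p 0.29). Of 18 voltage-gated calcium channel subunits, 7 were tested in SUM149PT, with 4 higher and 2 lower (85.7%, against 74.8% of all genes). In HCC1937 4 were tested, with 0 higher and 1 lower (25%, against 25.6%). CACNB1, a beta subunit with the highest mean there over the sorted libraries though not in SUM149PT CSCs, fell by 1.36 in SUM149PT (adjusted p 2.25e-05) and was not called in HCC1937 (0.10, adjusted p 0.394). Among markers of other cells, the smooth muscle list summed to between 12.8 and 37.1 FPKM in a library. Of the 4 genes tested in SUM149PT 3 were called higher and 1 lower, where 74.8% of all genes were called. Of 3 in HCC1937 none was called, against 25.6% of all genes. SMTN, with the highest mean over the sorted libraries, was called higher in CSCs of SUM149PT (0.44, adjusted p 0.00179) and not in those of HCC1937 (0.49, adjusted p 0.0778). The HCC1937 difference was called in 7 of 19 alternatives (lowest adjusted p 0.0112), and the count of the list reached 2 there. The blood and endothelial list summed to between 16.1 and 51.6 FPKM and was almost wholly CD68, with PTPRC below 0.1 FPKM in every library and CD3E at 0. All 4 genes of the list tested in SUM149PT were called lower in CSCs, as were 41.5% of all genes. In HCC1937 1 of 3 was called lower, against 15.3% of all genes. That call was lost without CSC replicate 2 or without non-CSC replicate 1 or 3. The tested genes other than CD68 were below 1 FPKM. CD68 averaged 16.2 and 48.3 FPKM in CSCs and non-CSCs of SUM149PT (-1.57, adjusted p 5.11e-06) and 42.3 and 40.0 FPKM in HCC1937 (0.08, adjusted p 0.468).

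Levels were also compared between HCC1937 and SUM149PT within each fraction. Between the CSCs all 10 genes were called, against 76.9% of the 16373 genes tested, with 4 higher in HCC1937 and 6 lower. ITPR1 was 25.5-fold lower in HCC1937 (log2 -4.30, adjusted p 1.54e-12) and KCNMA1 11.1-fold lower (-3.14, adjusted p 2.79e-11). KCNN4 was 5.03-fold higher (2.31, adjusted p 8.31e-11) and TNNC1 5.65-fold higher (1.90, adjusted p 0.00312). The other genes higher in HCC1937 CSCs were ATP2C2 and STIM1, and the others lower were ITPR2, ORAI1, ATP2B4 and ITPR3. None of these directions changed under the 3 scalings. The median log2 difference of all genes was 0.22 as deposited, 0 after upper quartile scaling and 0.048 after quantile normalization.

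Between the non-CSCs 6 genes were called, against 76.8% of all genes tested, with TNNC1 higher in HCC1937 (6.25-fold, log2 2.66, adjusted p 0.000266) and 5 lower. ITPR1 was 23.9-fold lower (-3.85, adjusted p 4.99e-12), ITPR2 4.55-fold lower (-2.09, adjusted p 1.49e-08) and KCNMA1 4.51-fold lower (-1.43, adjusted p 4.40e-08). ITPR3 (-0.44) and STIM1 (-0.24) were lower as well. No call was made for KCNN4 (0.09), ORAI1 (-0.06), ATP2B4 (0.21) or ATP2C2 (-0.15). The median of all genes was 0.09 as deposited, -0.12 under upper quartile scaling and -0.06 after TPM rescaling. KCNN4 changed sign under all 3 scalings and ATP2B4 under upper quartile and quantile scaling. ORAI1 was called lower in HCC1937 under all 3 scalings (-0.29, -0.28 and -0.22) and ATP2C2 under upper quartile scaling (-0.39). With 1 FPKM added ATP2B4 was called higher (0.20, adjusted p 0.0396). The interaction tests how these signed differences change between the fractions, and as deposited those of STIM1 (0.49 in CSCs and -0.24 in non-CSCs, both called), ATP2B4 and ATP2C2 had opposite signs in the 2 fractions.

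SUM159PT was set against the CSCs of each sorted line. The line and the lack of a sort cannot be told apart in these comparisons, and the comparison with SUM149PT shares its CSC libraries with that of HCC1937 against SUM149PT. Against SUM149PT CSCs all 10 genes were called, where 81.7% of all genes were, with 3 higher in SUM159PT and 7 lower. Under upper quartile scaling the calls of ITPR3 (-0.37 as deposited, then -0.06, adjusted p 0.588) and KCNN4 (-0.41, then -0.11, adjusted p 0.182) were lost. Against HCC1937 CSCs 8 were called, where 84.8% of all genes were, with 4 higher and 4 lower. The median of all genes was -0.60 in the first comparison and -0.85 in the second. Under upper quartile, quantile and TPM scaling it was -0.41, -0.0011 and -1.63 in the first, and -0.42, -0.0098 and -1.83 in the second. The share of calls that were higher in SUM159PT went from 34.7% to 40.1%, 50.2% and 16.9%, and from 32.5% to 41.8%, 50.2% and 17%.

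4 genes kept their direction under every scaling in both comparisons and were far from the median of all genes. STIM1 was higher in SUM159PT, 3.74-fold above SUM149PT CSCs (log2 1.88) and 2.66-fold above HCC1937 CSCs (1.40). These sizes depend on the settings, with ranges of 0.81 to 2.19 and 0.40 to 1.94 over the alternatives. ATP2B4 was 13.8-fold and 10.6-fold lower (-3.76 and -3.37), with ranges of -4.86 to -2.97 and -4.39 to -2.34. ITPR2 was lower (-4.14 and -2.89), with ranges of -5.60 to -1.70 and -4.24 to -0.91, since its SUM159PT values are below the 0.1 FPKM added. For ATP2C2 the log2 differences were -2.49 and -3.67, and no fold is given because 2 SUM159PT libraries were at 0. The sizes of these 2 values too are set by the amount added to FPKM, and they ranged from -5.29 to -0.56 and from -6.60 to -1.15 over the alternatives. KCNMA1 lay between the sorted CSCs, lower than in SUM149PT (-1.28) and higher than in HCC1937 (1.86, in a range of 0.89 to 3.32). ITPR1 was 18.7-fold lower than in SUM149PT CSCs (-3.95, in a range of -5.13 to -2.39) and 1.36-fold higher than in HCC1937 CSCs (0.35).

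Other directions turned with the scaling. Against SUM149PT CSCs, KCNMA1 (0.13) and KCNN4 (0.53) became higher after quantile normalization, and ORAI1, higher as deposited (0.63), became lower after TPM rescaling (-0.46). Against HCC1937 CSCs, ITPR1 became lower after TPM rescaling (-0.50), ITPR3 (-0.09 as deposited, not called) was called higher after upper quartile scaling (0.46) and lower after TPM rescaling (-1.10), and TNNC1 (-0.48) became higher after quantile normalization (1.24). KCNN4 was lower than in HCC1937 CSCs under every scaling (-2.72 as deposited), and ORAI1 was higher than in them under every scaling (1.07 as deposited), although after TPM rescaling its difference of 0.07 was not called. TNNC1 was higher than in SUM149PT CSCs (1.42, adjusted p 0.0159), a call lost without SUM149PT CSC replicate 3 (1.19, adjusted p 0.0628) or SUM159PT replicate 1 (1.19, adjusted p 0.0637). The call was lost in 5 of 19 alternatives, with adjusted p from 0.000128 to 0.258 over them all.

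**Figure D5:**
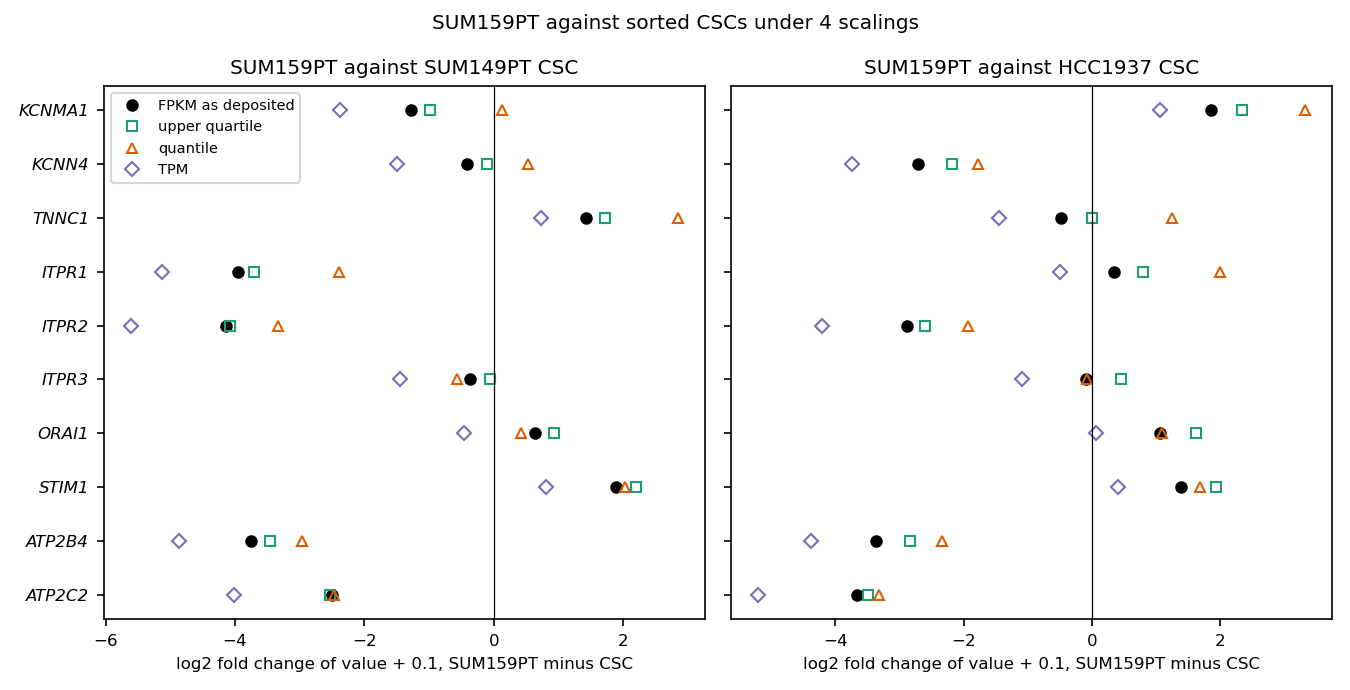
Log2 difference of SUM159PT from the CSCs of SUM149PT and HCC1937 (horizontal axis) for the 10 genes, with FPKM as deposited and under upper quartile, quantile and TPM scaling. STIM1 is to the right and ATP2B4, ITPR2 and ATP2C2 to the left of 0 in all cases, while KCNMA1, KCNN4 and ORAI1 change side against SUM149PT CSCs and ITPR1, ITPR3 and TNNC1 against HCC1937 CSCs.

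Genes like KCNMA1 over the 15 libraries were sought among the 12163 genes that averaged 1 FPKM or more, by Pearson's r of log2(FPKM + 0.1). Those with a high r included FMNL3 (0.98), SEC14L1 (0.98), RNF216P1 (0.98) and FMN2 (0.97). FMNL3 averaged 7.61 FPKM in SUM149PT CSCs, 2.24 FPKM in SUM159PT, 0.977 FPKM in SUM149PT non-CSCs, 0.531 FPKM in HCC1937 CSCs and 0.125 FPKM in HCC1937 non-CSCs, the same order of groups as KCNMA1. Its r ranged from 0.981 to 0.990 over the alternatives, and that of GIPC1 with TNNC1 from 0.912 to 0.967. For TNNC1 the 5 genes with the highest r were GIPC1 (0.93), PLEKHN1 (0.92), KRT8P10 (0.92), EPS8L1 (0.92) and TSPAN1 (0.91). TSPAN1 averaged 24.0 FPKM in HCC1937 non-CSCs and 0.792 FPKM in SUM149PT CSCs. These correlations describe 15 libraries that fall into 5 groups, which share line and sort, and they were picked as high among many.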

How the data were processed

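RNA was measured in 15 libraries of 5 groups, 3 libraries each, as polyadenylated RNA selected with oligo(dT) and sequenced on an Illumina HiSeq. The deposited table holds FPKM, computed by the authors after alignment to GRCh38 with Bowtie2 (version not given). The quantification tool and the strandedness are not stated. The table holds no read counts, so depth is not known and counting error cannot be given.

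A gene was tested where it averaged 0.1 FPKM or more over the libraries fitted, with limma 3.58.1 (lmFit and eBayes, R 4.3.3) on log2(FPKM + 0.1). The 2 CSC comparisons used the 6 libraries of their line, the interaction the 12 sorted libraries, and the other comparisons all 15. P-values were adjusted over all genes tested. Ratios, positions, primers, promoter windows and figures were made with Python 3.11.15 (pandas 2.3.3, numpy 2.4.6, matplotlib 3.10.9). Gene and primer positions are from GENCODE 29 and promoter windows from RefSeq. The scripts were tested on simulated data.

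The 10 genes and the 11 calcium and 4 marker lists were chosen with earlier results of these data known. Genes of a list are named where their calls matched in direction between the lines or where they had the highest mean FPKM of the list's other genes. Of the marker lists, the most abundant gene is named, and all genes of the sort and subtype list are. The motifs, the ratios, UQCC2, ORAI3, DES, the table of older symbols (such as TMEM66) and the alternative without replicate 3 for TNNC1 were chosen after values or sequences had been seen. Alternatives changed the value added before the logarithm (0.01 or 1 FPKM), the minimum (none or 1 FPKM), the scaling (upper quartile, quantile or TPM), the variance model, the libraries fitted, the cutoffs and a replicate block, or left out each library in turn. 1 of the genes most like KCNMA1 is not reported here.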

Additional observations from a re-analysis of the deposited data

Results flagged for a closer look

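These results were flagged because the CSC effect differed between the lines, tested as an interaction between lines over the 12 sorted libraries. Values are SUM149PT minus HCC1937 on the log2 scale. Among the 10 genes the difference was 1.71 for KCNMA1, 0.60 for ATP2B4, 0.45 for ITPR1 and 0.38 for ORAI1. The KCNMA1 difference ranged from 1.35 to 2.08 over the alternatives. The call of ITPR1 was lost with 0.01 FPKM added and after TPM rescaling. The difference was -2.22 for KCNN4, -1.33 for ATP2C2, -0.84 for ITPR2 and -0.73 for STIM1.

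Of the other genes of the calcium lists, only those picked by the naming rule are given, and some genes not named had larger differences. Among the named genes the effect was higher in SUM149PT for TRPC4 (1.79), RCN3 (1.59), SLC8A1 (0.97), CALM2 (0.80), ATP2B1 (0.79), PPP3CA (0.76), TMEM66 (0.46), SSFA2 (0.37) and TRPM4 (0.35). The call of SSFA2 was lost after TPM rescaling and in the fit of all 15 libraries. It was lower in SUM149PT for NFATC4 (-2.82), LRRC26 (-1.95), PLCD1 (-1.60), TRPV4 (-1.56), CACNB1 (-1.45), CAMK1D (-1.05) and PLCG2 (-0.80). With 1 FPKM added the PLCG2 difference changed sign (0.0239), and after quantile normalization its call was lost. LRRC26 was below the expression minimum in SUM149PT and not called in HCC1937, and its value depends on the amount added to FPKM, from -4.56 to -0.65 over the alternatives. Smaller differences of that direction were those of MICU2 (-0.64), PLCD3 (-0.63), CALR (-0.49) and CALU (-0.24). The call of CALU was lost in 14 of 25 alternatives, 7 of them with 1 library left out.

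Of the markers, the difference was 0.27 for CD44, -1.48 for CD24, -2.21 for EPCAM, -0.77 for ESR1 and -1.65 for CD68. The call of CD44 was lost in 9 of 25 alternatives, 4 of them with 1 library left out. The ESR1 difference changed sign with 1 FPKM added (0.0656) and its call was lost after quantile normalization.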

How the results depend on the processing

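Apart from changes of the cutoffs, 784 of 792 values of the named genes kept direction and call in SUM149PT, 739 of 807 in HCC1937 and 1050 of 1100 for the interaction. Between HCC1937 and SUM149PT, 170 of 170 did in CSCs and 160 of 170 in non-CSCs. For SUM159PT, 161 of 170 did against SUM149PT CSCs and 162 of 170 against HCC1937 CSCs. With an adjusted p of 0.0001 and an absolute log2 fold change of 1, 4 of the 10 genes were called in SUM149PT, 0 in HCC1937, 3 in the interaction, 5 between the CSCs, 3 between the non-CSCs and 6 between SUM159PT and SUM149PT CSCs. Of the calcium list genes 28 were called in SUM149PT and 0 in HCC1937. With an adjusted p of 0.05 and the same fold change, 4 genes and 40 list genes were called in SUM149PT, 3 and 9 in HCC1937, 3 in the interaction and 6 between the CSCs. Stricter cutoffs lower the counts by construction. Shares of all genes are not given for these cutoffs or the other settings below, so the counts cannot be read as high or low. When 1 library was left out, 9 to 10 genes and 78 to 81 list genes were called in SUM149PT, and 4 genes and 29 to 32 list genes in HCC1937. In the interaction 8 to 9 genes were called, and between SUM159PT and SUM149PT CSCs 9 to 10.

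Directions turned as follows, and the cause was not tested. In HCC1937, ITPR2 was 0.0144 after quantile normalization and 0.0296 after TPM rescaling, and ranged from -0.182 to 0.0351 with 1 library left out. KCNN4 was 0.0556 after TPM rescaling and ranged from -0.1482 to 0.0122. ITPR1-AS1 was 0.0821 with 0.01 FPKM added, 0.0003 after quantile normalization and 0.0866 after TPM rescaling, and ranged from -0.3896 to 0.0084. In the interaction with 1 FPKM added, CALML5 was 1.24, PLCG2 0.0239, MB 0.0759, ESR1 0.0656 and ERBB2 0.0051. After quantile normalization CALML5 was 0.114, HSP90B1 -0.105, MB 0.0386 and SMTN 0.0031. After TPM rescaling ORAI2 was -0.0196, PPP3CC -0.0393 and CAMK2G -0.0338. With 1 library left out, the interaction ranged from -0.5671 to 0.0788 for CALML5, from -0.3654 to 0.0165 for MB and from -0.1714 to 0.062 for SMTN. Between the non-CSCs of the lines, KCNN4 was -0.145, -0.127 and -0.0741 under upper quartile, quantile and TPM scaling, and ATP2B4 was -0.0245 and -0.0013 under the first 2. Against SUM149PT CSCs, KCNMA1 was 0.128 and KCNN4 0.526 after quantile normalization, and ORAI1 -0.459 after TPM rescaling. Against HCC1937 CSCs, TNNC1 was 0.0018 and ITPR3 0.455 after upper quartile scaling, TNNC1 1.24 after quantile normalization and ITPR1 -0.504 after TPM rescaling. ITPR3 ranged from -0.1573 to 0.0067 there with 1 library left out.

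Same-numbered fractions share only a number in the labels. With a replicate block, 10 genes and 81 list genes were called in SUM149PT, 4 and 31 in HCC1937, and 8 in the interaction. TNNC1 was called in SUM149PT under it (adjusted p 0.0206), while ITPR3 (0.0770) and ATP2B4 (0.0581) were not called in HCC1937. The other counts under the replicate block were 10 between the CSCs, 6 between the non-CSCs, 10 against SUM149PT CSCs and 8 against HCC1937 CSCs. Correlations of same-numbered libraries around their group means were 0.137, 0.024 and 0.137 in SUM149PT and -0.13, -0.052 and -0.031 in HCC1937.

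At a minimum of 1 FPKM some genes were not tested and have no value. Among the 10 these were TNNC1 in SUM149PT and KCNMA1, ITPR1 and ITPR2 in HCC1937. ITPR1-AS1 had none in HCC1937 without non-CSC replicate 2. The depth is not known, so its limits cannot be given.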
